A study of Mus musculus with 106 samples.

Results

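Oxidative phosphorylation in the mouse liver was described through the nuclear genes that encode the subunits of its 5 enzyme complexes. A gene of the deposited count table was taken as a member when its Ensembl identifier belonged to a protein-coding nuclear gene whose symbol starts with Ndufa, Ndufb, Ndufc, Ndufs, Ndufv, Uqcr, Cox4 to Cox8 or Atp5, or is Sdha, Sdhb, Sdhc, Sdhd, Cyc1 or Cycs. This gave 90 of the 14330 genes of the table. They comprised 36 genes of complex I (NADH dehydrogenase), 4 of complex II (succinate dehydrogenase), 9 of complex III (the cytochrome bc complex), 15 of complex IV (cytochrome c oxidase, counted with Ndufa4 and Ndufa4l2), 17 of complex V (ATP synthase), cytochrome c itself (Cycs), and 8 Ndufaf genes, which encode assembly factors of complex I rather than subunits. The symbol rule matched 6 further annotated genes that the table does not list, among them the tissue forms Cox4i2, Cox6a2 and Cox8b.

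Complexes I and II pass electrons from NADH and succinate to ubiquinone, complex III passes them on to cytochrome c, and complex IV delivers them to oxygen. Complexes I, III and IV pump protons across the inner mitochondrial membrane, and ATP synthase uses the returning protons to make ATP. Most subunits are nuclear genes, while the remaining ones are transcribed from mitochondrial DNA. In hepatocytes the chain reoxidises the NADH and FADH2 that fatty acid oxidation produces, and it supplies the ATP for gluconeogenesis and urea synthesis.

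The libraries were mRNA-seq of whole liver, prepared with a SMARTER kit, from mice of 9 inbred strains (129S1/SvImJ, A/J, C57BL/6J, CAST/EiJ, DBA/2J, NOD/ShiLtJ, NZO/HlLtJ, WSB/EiJ and PWK/PhJ) and both sexes. Animals received a chow diet (CD, 6% of energy from fat, 20% from protein and 74% from carbohydrate) or a high-fat diet (HFD, 60% fat, 20% protein and 20% carbohydrate) from 8 weeks of age, and perfused livers were taken at 21 weeks. The labels name no engineered allele in any group, and each library is 1 mouse, so p-values measure the spread between mice. The 36 groups of strain, sex and diet held 3 libraries each, apart from NZO/HlLtJ males on HFD with 1. The library labelled 129S1/SvImJ female CD 1 was left out, which leaves that group with 2: its Xist was at 0.923 CPM (its count scaled by the library's gene counts), against 186 to 430 in the other 53 libraries labelled female, and its Y-linked Ddx3y at 60.4, inside the male range of 31.8 to 82.1. The groups of most strains, by sex as well as by diet, carried separate ranges of animal numbers, and the 12 C57BL/6J libraries carried the letters LIM where all other libraries carried BXD, so that diet, sex and strain effects cannot be told apart from these.

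The members whose results recur below were cytochrome c (Cycs, ENSMUSG00000063694, chr6:50562563-50566538, minus strand), the membrane anchor of succinate dehydrogenase Sdhd (ENSMUSG00000000171, chr9:50596357-50603812, minus strand) and the complex IV subunit Cox7a2 (ENSMUSG00000032330, chr9:79755361-79759878, minus strand), all in GRCm38. Their 250 bases upstream of the RefSeq start (GRCm38.p6, minus strand, written 5′ to 3′) are printed because respiratory chain promoters are known for shared motifs. Capitals mark matches to the motifs searched on both strands, which were the NRF1 and YY1 motifs and those of ETS factors (CCGGAAG), ERR (TCAAGGTCA), CRE (TGACGTCA) and the E-box (CACGTG).
Cycs, chr6:50566570-50566819: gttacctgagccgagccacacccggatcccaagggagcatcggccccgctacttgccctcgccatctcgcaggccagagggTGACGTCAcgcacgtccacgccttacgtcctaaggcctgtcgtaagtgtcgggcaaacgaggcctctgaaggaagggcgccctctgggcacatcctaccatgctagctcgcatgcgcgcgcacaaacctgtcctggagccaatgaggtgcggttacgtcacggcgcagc
Sdhd, chr9:50603850-50604099: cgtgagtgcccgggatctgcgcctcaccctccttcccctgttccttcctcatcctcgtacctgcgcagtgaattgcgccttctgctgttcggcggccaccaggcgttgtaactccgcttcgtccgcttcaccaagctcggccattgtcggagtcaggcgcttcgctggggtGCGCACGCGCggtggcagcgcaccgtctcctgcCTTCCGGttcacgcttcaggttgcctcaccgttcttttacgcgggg
Cox7a2, chr9:79759854-79760103: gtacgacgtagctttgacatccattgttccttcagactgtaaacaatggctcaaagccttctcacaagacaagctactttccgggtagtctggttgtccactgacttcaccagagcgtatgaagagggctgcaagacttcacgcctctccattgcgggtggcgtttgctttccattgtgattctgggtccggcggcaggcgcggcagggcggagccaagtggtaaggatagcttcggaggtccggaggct
The Cycs window holds a CRE, the Sdhd window holds an NRF1 match and an ETS match (CTTCCGG, the other strand), and the Cox7a2 window holds none of these letters.

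Of the 90 members, 75 had a RefSeq window, and 19 of these (25.3%) held the NRF1 motif, against 5.19% of the windows of 27025 genes. The ETS motif was present in 18 (24%), against 9.93%. YY1 was found in 5 (6.67% against 1.17%), CRE in 5 (6.67% against 2.03%), ERR in 2 (2.67% against 0.466%) and the E-box in 6 (8% against 8.09%). NRF1 windows belonged to members of complexes I, II, III, IV and V, for example Ndufa5, Sdha, Uqcrc1, Cox6a1 and Atp5g3. The windows searched also hold the bases just past the start, and where a gene has more than 1 window a match in any of them was counted. The ERR match of Sdhd lies past the start, outside the bases printed. A match is a run of letters, not a bound site.

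Gene counts summed to 35534924 to 73577221 per library (median 51238078), and members made up 0.821% to 1.88% of them. All 7 hepatocyte markers were in the table, with a summed median of 131432 CPM (here and below scaled by TMM factors) in CD females, and no marker of fat, striated muscle or pancreas was listed. Reads that did not align uniquely were 13.4% to 29.8% of a library and were more frequent in males, in 9 of 9 strains on either diet. The library of C57BL/6J male CD 3 stood apart: its members summed to 21798 CPM, against 12057 and 12896 CPM in the other mice of its group and 15356 CPM in the next highest library. In it the members lay a median of 0.92 log2 units above those mice, and 684 other protein-coding genes with transcripts under 1000 bases lay 0.79 above, while longer non-members lay 0.06 below (median −0.06). The main counts are therefore given with and without this library. For 18 members a counted gene overlaps on the opposite strand, and the strandedness of the counting is not given in the sources used here. Among them are Ndufa2 (with Tmco6), Ndufs1 (Eef1b2), Ndufs3 (Kbtbd4), Ndufb2 (Braf), Ndufb5 (Mrpl47), Cox4i1 (Emc8), Ndufa4l2 (Shmt2), Ndufaf2 (Smim15), Atp5a1 (Haus1), Atp5f1 (Wdr77) and Atp5j (Gabpa). Whether reads in these overlaps were counted for the member, for the partner or for neither is not known here.

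Levels per kilobase of transcript differed between the complexes. Median RPKM (CPM per kilobase) was 77.4 for complex I, 153 for complex II, 157 for complex III, 159 for complex IV and 178 for complex V, against 26.2 for Cycs and 8.35 for the complex I assembly factors. The highest member was Atp5b, the catalytic beta subunit of ATP synthase, at 789 RPKM, followed by Cox6a1 at 585 and Atp5g3 at 549. Within complex I, Ndufa6 was highest at 174 RPKM and Ndufb2, which overlaps Braf, lowest at 1.48 (3.57 CPM over 2413 bases). These levels depend on the annotated transcript length, and reads that were ambiguous or not uniquely aligned are missing from them. The flavoprotein Sdha led complex II at 177 RPKM and the anchor Sdhc was its lowest at 46.2. In complex III, Uqcrq stood at 301 RPKM and the core protein Uqcrc2 at 99.3. Among the assembly factors, Ndufaf8 was highest at 16.4 RPKM and Ndufaf5 lowest, and Atp5s was the lowest of the complex V genes at 4.42.

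Paralogs of the same subunit differed widely in level. Cox6b1, the general form of a complex IV subunit, was at 301 RPKM and its testis form Cox6b2 at 6.54, a mean carried by 129S1/SvImJ (28.0 CPM, against 0.0710 to 1.36 CPM in the means of the other 8 strains). Cox7a2, the liver form, was at 153 RPKM, the heart and muscle form Cox7a1 at 1.87, and Cox7a2l, a related protein of respiratory supercomplexes, at 51.4. Ndufa4 was at 369 RPKM, and its hypoxia-induced paralog Ndufa4l2 was the lowest member of all at 0.859. The genes Atp5g1, Atp5g2 and Atp5g3, which encode the same mature c subunit of ATP synthase, were at 58.1, 94.1 and 549 RPKM. Cox4i1 stood at 374 and Cox8a at 387 RPKM.

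The summed level of the 90 members was lowest in WSB/EiJ females on HFD, at 9870 ± 1125 CPM (SD, n = 3), and highest in C57BL/6J males on CD, at 15584 ± 5398 CPM (SD, n = 3), the group that holds the library apart, with a median group at 11644 CPM. Over strain means the sum was 11423 ± 753 CPM in females on CD, 11190 ± 833 in females on HFD, 12635 ± 1524 in males on CD and 12125 ± 477 in males on HFD (SD, n = 9 strains). By complex, group means spanned 2232 to 3842 CPM for complex I, 829 to 1216 for complex II, 1269 to 1948 for complex III, 1563 to 2945 for complex IV and 3758 to 5548 for complex V. Complex I averaged 2600 CPM over strains in CD females, 2615 in HFD females, 2906 in CD males and 2818 in HFD males. For complex V the same values were 4308, 4110, 4691 and 4442 CPM, and for the 13 mitochondrially encoded subunits, from the same libraries, 38890, 38587, 42491 and 42818 CPM. The ATP synthase genes thus made up the largest part of the nuclear sum in each sex and diet. Of the 90 members, 47 varied by less than 2-fold over the 36 group means, and Uqcrc2 varied least, by 1.36-fold. These values include the library apart, whose group had the highest mean for many members, and were not worked out without it.

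**Figure D1:**
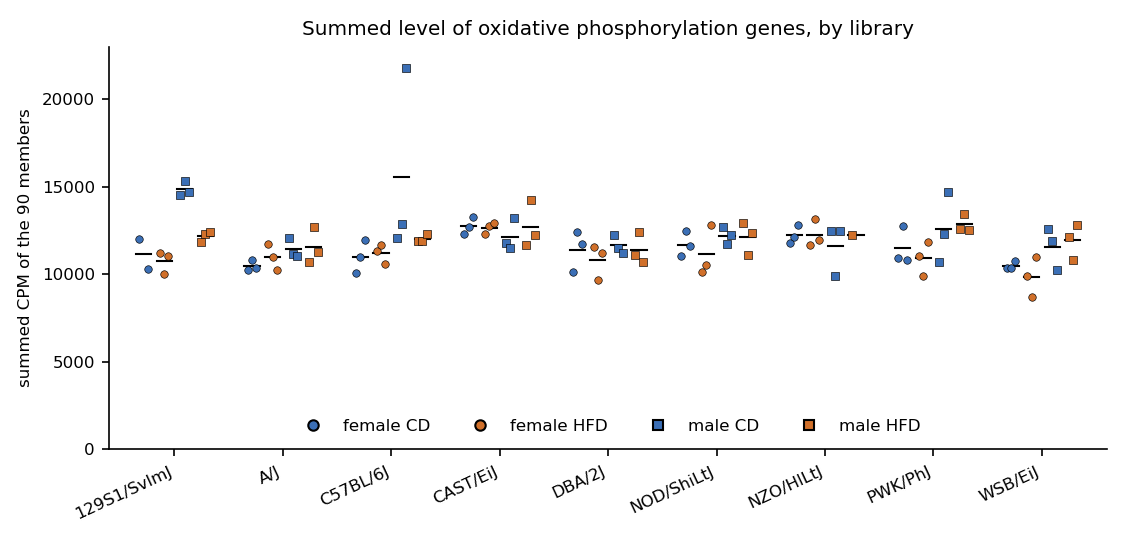
Summed level of the 90 oxidative phosphorylation members in each library, in CPM, by strain, sex and diet. Most libraries lie close together, and the library of C57BL/6J male CD 3, at 21798 CPM, lies above all others.

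The comparison of HFD with CD asks which members differed between the diets across the 18 strain and sex pairs. Cycs, Ndufaf4, Ndufs7 and Sdhd fell, as did further members of complexes I, III, IV and V, while 4 members rose. By edgeR's quasi-likelihood test with Benjamini-Hochberg adjustment over all 14330 genes, 25 members passed 0.05, 4 higher and 21 lower on HFD. Over all genes 40.4% passed, 20.2% higher and 20.2% lower. The median change of the members was −0.03 on the log2 scale and 32 of the 90 had a positive value. Leaving out the library apart, 34 members were called, 15 higher and 19 lower, of which 23 were shared, and 41.8% of all genes passed. With the level of other short transcripts as a covariate 51 members were called, 2 higher and 49 lower, where 40.7% of all genes passed. In this bulk tissue, fewer cells of a type and less RNA per cell cannot be told apart.

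Cycs, the carrier of electrons between complexes III and IV, had the largest fall. In females on CD its lowest, median and highest library values were 64.2, 87.4 and 189 CPM, and on HFD 38.1, 64.0 and 95.4 CPM. In males they were 60.6, 86.2 and 122 CPM on CD and 51.7, 79.0 and 120 CPM on HFD. The HFD mean was lower in 9 of 9 strains in females, with no overlap between the diets in 8 (WSB/EiJ overlapped), and in 7 of 9 in males, where A/J and NZO/HlLtJ were higher. Male HFD libraries lay below all CD libraries of the strain in 3 strains, 129S1/SvImJ, C57BL/6J and WSB/EiJ, and the single HFD male of NZO/HlLtJ lay above. Its change was −0.35 (SE 0.035, edgeR adjusted p = 6.8e-13), and it was lower in 16 of 18 pairs.

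Sdhd, which anchors succinate dehydrogenase in the membrane, was also lower in 16 of 18 pairs. Its lowest, median and highest values were 127, 168 and 212 CPM in CD females and 120, 153 and 195 CPM in HFD females. In males they were 117, 170 and 244 CPM on CD and 119, 145 and 187 CPM on HFD. The ranges of all libraries overlapped, but within strains the HFD mean was lower in 8 of 9 strains in each sex, the exceptions being A/J females and NZO/HlLtJ males. HFD libraries lay below all CD libraries of the strain in 3 strains in females and 4 in males. In A/J females they lay above all CD libraries. The change was −0.16 (SE 0.028, edgeR adjusted p = 3.1e-06).

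Cycs and Sdhd were called under all 25 alternative settings tried, which included limma with 1 effect per strain as the unit (adjusted p = 0.020 for Cycs and 0.027 for Sdhd). In that limma fit they were the only members called.

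**Figure D2:**
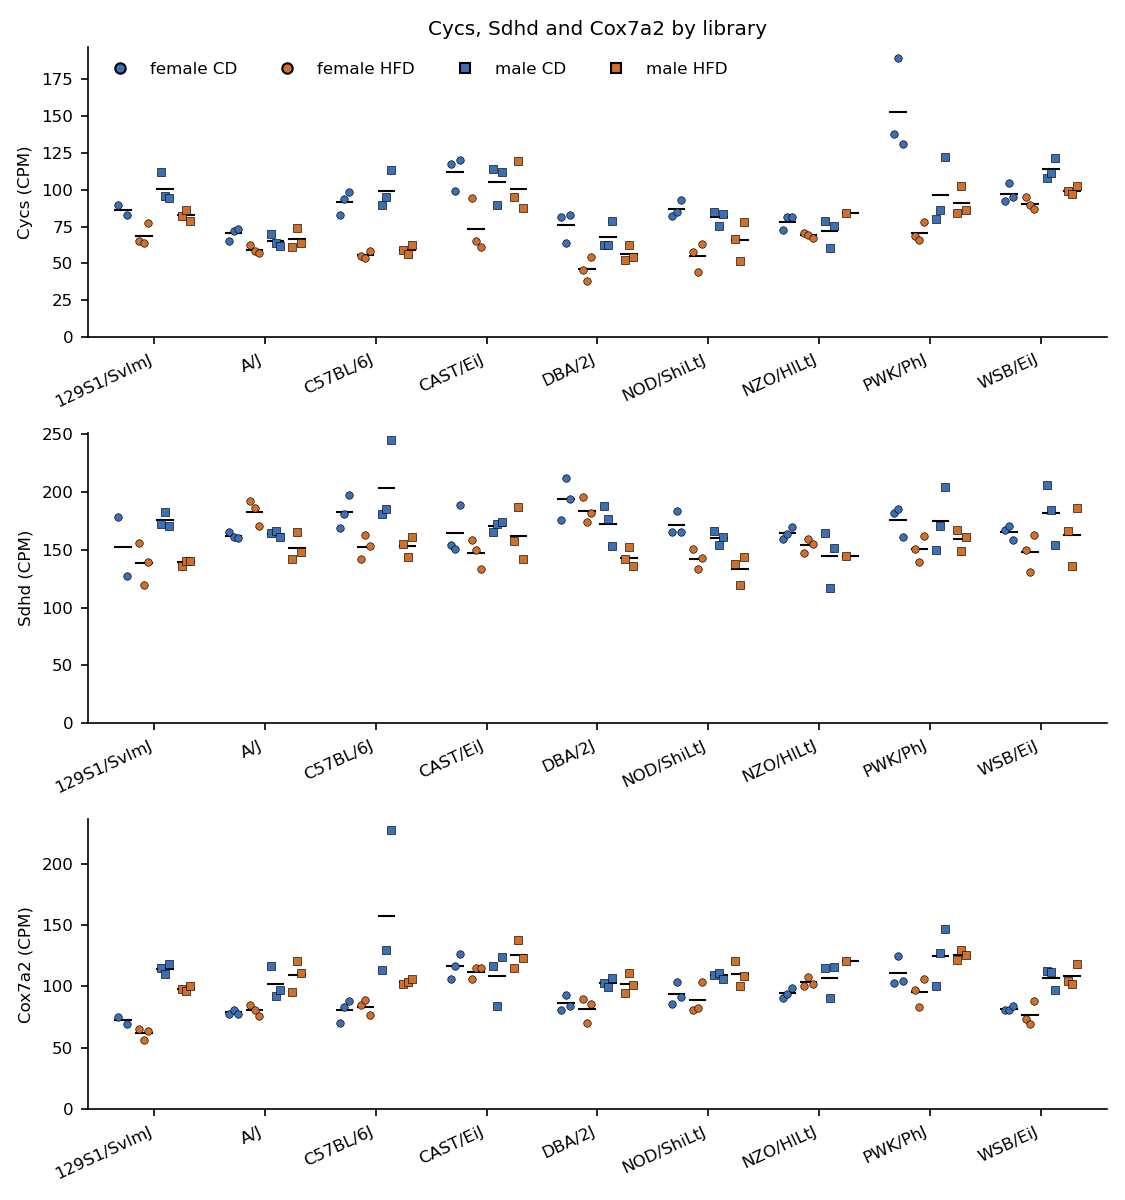
CPM of Cycs, Sdhd and Cox7a2 in each library by strain, with circles for females, squares for males, blue for CD and orange for HFD; bars are group means. Cycs is lower on HFD in females of all 9 strains, and Cox7a2 is higher in males than in females in most strains.

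In complex II, 1 of 4 members was higher and 1, Sdhd, was lower. Sdha, the subunit that holds FAD and oxidises succinate, rose by 0.08 (SE 0.027, edgeR adjusted p = 0.013) and was higher in 15 of 18 pairs, with library medians of 461 CPM on CD and 515 on HFD in females and 521 and 530 in males. Its call was lost under 5 of 25 alternatives: without replicate 1, without replicate 3, without C57BL/6J, without PWK/PhJ and with strain as the unit. The iron-sulfur subunit Sdhb changed by 0.03 and the anchor Sdhc by 0.02, neither called.

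In complex I, 1 of 36 members was higher and 7 were lower on HFD. Ndufs7, a core iron-sulfur subunit next to the quinone site, was lower in 15 of 18 pairs, by −0.20 (SE 0.043, edgeR adjusted p = 0.00017). In females its lowest, median and highest values were 67.2, 99.0 and 131 CPM on CD and 59.9, 84.9 and 124 CPM on HFD. In males they were 66.8, 107 and 248 CPM on CD, where the library apart was highest, and 72.0, 95.0 and 141 CPM on HFD, so the diets overlapped in both sexes. The accessory subunits Ndufa12 (−0.17), Ndufa5 (−0.13), Ndufb5 (−0.11) and Ndufa8 (−0.10) fell too, as did Ndufab1 (−0.11), the mitochondrial acyl carrier protein, and Ndufv2 (−0.07), which was called under 9 of 25 alternatives. The called rise was Ndufa7, at 0.10 (SE 0.041, edgeR adjusted p = 0.04), which lost its call in 31 of 104 fits that each left out a single library. The electron-input subunits Ndufs1 (−0.04) and Ndufv1 (−0.00) were not called.

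Of the 8 assembly factors of complex I, Ndufaf4 fell by −0.23 (SE 0.053, edgeR adjusted p = 0.00034) and was lower in 13 of 18 pairs. In females its lowest, median and highest values were 22.2, 29.7 and 94.3 CPM on CD and 15.2, 23.7 and 81.1 CPM on HFD, and in males 19.8, 30.6 and 84.5 CPM on CD and 18.1, 28.3 and 58.4 CPM on HFD. The spread over strains was wider than the change with diet. Ndufaf1 rose by 0.09. In complex III, 4 of 9 members were lower and none was higher: the heme-bearing subunit Cyc1 (−0.11), the Rieske iron-sulfur protein Uqcrfs1 (−0.11), the hinge protein Uqcrh (−0.12) and Uqcr10 (−0.14). The core protein Uqcrc1 (−0.01) was not called. Complex V had 6 of 17 lower and none higher. These were the F-type catalytic head subunits Atp5a1 (−0.08) and Atp5b (−0.08), the stalk subunits Atp5o (−0.12) and Atp5f1 (−0.10), Atp5s (−0.10) and Atp5g3 (−0.12), while Atp5g1 (−0.06) and Atp5g2 (−0.00) were not called.

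In complex IV, Cox5a was lower (−0.09) and Ndufa4l2 higher (0.27), of 15 members. The Ndufa4l2 call was lost under 7 of 24 alternatives, among them without replicate 1 or 2 and without CAST/EiJ or PWK/PhJ. Cox4i1 (−0.05), Cox6a1 (−0.04), Cox6b1 (−0.05), Cox7a2 (−0.05), Cox7a2l (−0.05), Cox8a (−0.04), Cox6b2 (−0.23), Cox7a1 (0.04) and Ndufa4 (−0.01) were not called. Without the library apart, higher and lower counts were 7 and 6 in complex I, 1 and 4 in complex III, 1 and 1 in complex IV and 3 and 5 in complex V. The number of members called higher in complex I thus depends on that library.

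**Figure D3:**
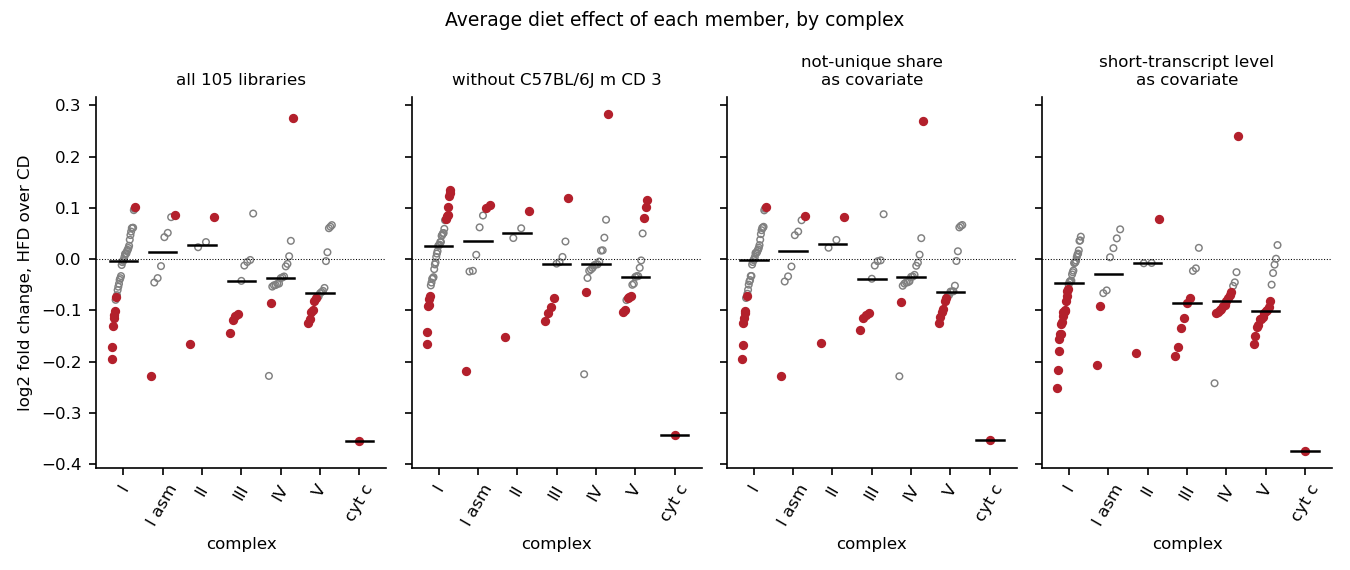
Log2 change from CD to HFD of each member by complex, averaged over the 18 strain and sex pairs, in 4 panels: all libraries, without C57BL/6J male CD 3, with the not uniquely aligned share as a covariate, and with the level of other short transcripts as a covariate. Red points passed an adjusted p of 0.05 and black lines are complex medians; Cycs is lowest in the panel of all libraries, at −0.35.

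Females and males were then taken apart. In females 21 members were called, 6 higher and 15 lower, where 33.9% of all genes passed, 18% higher and 15.9% lower. Without the library apart 22 were called, where 35.1% of all genes passed. The female falls were led by Cycs (−0.52), Ndufaf4 (−0.38) and Ndufa12 (−0.20), and the rises were Ndufv3 (0.18), Ndufs8 (0.17), Ndufa7 (0.16), Ndufaf1 (0.13), Ndufa1 (0.13) and Sdha (0.11). In males 6 were called, 1 higher and 5 lower, where 16.5% of all genes passed, 6.66% higher and 9.87% lower. Without the library apart 5 were called, 4 of them shared, where 17.1% of all genes passed. The 6 members called with all libraries were Ndufs7 (−0.21), Sdhd (−0.19), Cycs (−0.19), Atp5o (−0.17), Atp5g3 (−0.13) and Ndufa4l2 (0.37). The test of the difference between the sexes called Cycs alone among the members, where 1.61% of all genes passed, 0.384% upward and 1.22% downward in males relative to females. Its change was −0.52 in females and −0.19 in males, a difference of 0.33 (SE 0.069, edgeR adjusted p = 0.0041). Without WSB/EiJ female HFD 2, or without WSB/EiJ male CD 3, 2 members were called, in fits whose shares of all genes were not kept. The call was lost without PWK/PhJ (difference 0.24, adjusted p = 0.083) and without replicate 2 of every group (0.18, adjusted p = 0.29). In PWK/PhJ, Cycs in females went from 153 ± 31.9 to 70.9 ± 6.36 CPM (SD, n = 3) and in males from 96.3 to 91.2 CPM.

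The diet effect was also compared between strains. By an F test over the 9 strains 5 members were called, where 16.4% of all genes passed. They were Cox6b2 (F = 6.76, adjusted p = 0.00013), Cycs (F = 5.40, adjusted p = 0.0011), Atp5s (F = 4.18, adjusted p = 0.0068), Ndufab1 (F = 3.68, adjusted p = 0.014) and Ndufa5 (F = 2.89, adjusted p = 0.047), all by edgeR. Ndufa5 lost its call in 48 of 104 fits that each left out a single library. Without replicate 1 of every group the calls of Cycs (adjusted p = 0.082), Atp5s (0.13) and Ndufab1 (0.051) were lost, and without replicate 2 those of Atp5s (0.12) and Ndufab1 (0.29). The count was 16 without C57BL/6J male CD 1, 10 without C57BL/6J male CD 2, 9 without WSB/EiJ female HFD 2 and 8 without CAST/EiJ male CD 3 or PWK/PhJ male CD 1. The shares of all genes in these fits were not kept, so it is not known whether they moved too.

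By the log2 change averaged over the sexes, Cycs fell most in C57BL/6J. Its values there were 83.2, 93.9 and 98.7 CPM in CD females, 55.2, 53.5 and 58.7 in HFD females, 89.5, 95.2 and 114 in CD males and 59.1, 56.6 and 62.6 in HFD males. Every HFD library lay below every CD library. The change was −0.73, and it was −0.59 in PWK/PhJ, −0.50 in DBA/2J, −0.48 in NOD/ShiLtJ and −0.34 in CAST/EiJ, each called within its strain. Mean CPM over both sexes went from 125 to 81.0 in PWK/PhJ, from 72.1 to 51.3 in DBA/2J, from 84.0 to 60.5 in NOD/ShiLtJ and from 109 to 87.2 in CAST/EiJ. The NOD/ShiLtJ call was lost without replicate 1 (adjusted p = 0.072) and without replicate 2 (0.067). In 129S1/SvImJ the change was −0.31 (from 94.9 to 75.7 CPM, edgeR adjusted p = 0.15), in NZO/HlLtJ 0.02, in A/J −0.11 and in WSB/EiJ −0.15, none of them called.

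Cox6b2, the testis form of a complex IV subunit, fell in C57BL/6J by −1.77 (SE 0.26, edgeR adjusted p = 6.3e-07), from 1.56 to 1.84 CPM on CD to 0.332 to 0.638 CPM on HFD, with no overlap. In DBA/2J it fell by −1.09, with 1.38 ± 0.397 CPM on CD and 0.658 ± 0.353 CPM on HFD (SD, n = 6 each), and the diets overlapped. That call was lost without replicate 2 (adjusted p = 0.0505) and without replicate 3 (0.13). Atp5s, a coupling factor B family protein of ATP synthase, went from 9.13 ± 0.858 to 6.35 ± 0.571 CPM in C57BL/6J (SD, n = 6) with no overlap, and from 5.12 to 6.24 CPM in NZO/HlLtJ. Ndufab1 went from 27.3 to 22.3 CPM in NOD/ShiLtJ and from 30.3 to 33.2 CPM in CAST/EiJ. Ndufa5 went from 49.7 to 36.4 CPM in 129S1/SvImJ and from 58.1 to 58.9 CPM in CAST/EiJ.

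Within single strains, C57BL/6J had the most members called, 29 (2 higher and 27 lower), where 20.8% of all genes passed, 9.91% higher and 10.9% lower. Without the library apart 11 were called, 6 higher and 5 lower, with 7 shared, where 19.3% of all genes passed, and the median change went from −0.20 to 0.02. Cycs (−0.68), Cox6b2 (−1.78), Atp5s (−0.52), Ndufs7 (−0.32) and Sdhd (−0.26) remained lower without it, and Sdha (0.30) and Ndufaf1 (0.38) remained higher. PWK/PhJ had 6 members called, 1 higher and 5 lower, where 8.81% of all genes passed (4.61% higher, 4.19% lower), with Ndufa12 at −0.45 and Ndufa4l2 at 0.96 (edgeR adjusted p = 0.047). The Ndufa4l2 libraries of PWK/PhJ lay between 0.0913 and 0.380 CPM, and its call was lost under 8 of 13 alternatives. CAST/EiJ had 3 higher and 1 lower where 23.5% passed (11.6% higher, 12% lower), among them Atp5j at 0.34 (SE 0.09, edgeR adjusted p = 0.0038, and 0.13 without replicate 2). DBA/2J had 3 lower, Cox6b2, Cycs and Uqcrfs1, where 7.27% passed (4.31% higher, 2.97% lower). NOD/ShiLtJ had 3 lower, Cycs, Ndufab1 and Sdhd, where 5% passed (2.6% higher, 2.4% lower). The fit shares its spread over groups, and without the library apart the counts were 8 in PWK/PhJ, 7 in CAST/EiJ, 5 in DBA/2J and 4 in NOD/ShiLtJ, where 9.64%, 24.9%, 8.12% and 5.64% of all genes passed.

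No member passed in 129S1/SvImJ, A/J, NZO/HlLtJ or WSB/EiJ, where 1.07%, 1.13%, 0.6% and 1.18% of all genes did. Higher and lower shares of all genes were 0.516% and 0.551% in 129S1/SvImJ, 0.433% and 0.698% in A/J, 0.37% and 0.23% in NZO/HlLtJ and 0.426% and 0.754% in WSB/EiJ. Ndufa12 and Ndufa5 passed in 129S1/SvImJ without the library apart. In 129S1/SvImJ the median change of the members was −0.17. With library totals in place of TMM factors the median of all genes itself moved by 0.11 in the NZO/HlLtJ diet comparison.

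Strains were also compared on chow. The F test over 9 strains called 85 of 90 members, a share near the 96% of all genes that passed. Without the library apart it called 83, where 96.1% of all genes passed. Cox4i1, Atp5f1, Ndufs3, Cox6a1 and Ndufb2 were not called. The largest F belonged to Cox6b2 (224), Cox7a2l (129), Ndufs5 (106), Ndufa4l2 (32.5), Ndufaf6 (28.1) and Ndufaf2 (19.6).

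Cox6b2 (ENSMUSG00000051811, chr7:4751792-4753094) was high in 129S1/SvImJ alone: its 11 libraries lay between 13.1 and 36.8 CPM and the other 94 reached at most 2.58 CPM. In CAST/EiJ and PWK/PhJ it lay between 0 and 0.180 CPM. Cox7a2l (ENSMUSG00000024248, chr17:83501918-83517330), known for a role in respiratory supercomplexes, was lowest in CAST/EiJ, at 13.3 to 20.8 CPM, and highest in C57BL/6J, at 77.5 to 141 CPM. DBA/2J (35.7 to 47.6 CPM) and PWK/PhJ (40.2 to 53.0 CPM) lay between, and the other 5 strains spanned 45.6 to 73.8 CPM. CAST/EiJ and C57BL/6J overlapped no other strain.

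Ndufs5 (ENSMUSG00000028648, chr4:123712710-123718202), an accessory subunit of complex I, formed 2 sets of strains. 129S1/SvImJ, CAST/EiJ, NOD/ShiLtJ and PWK/PhJ lay between 6.41 and 15.4 CPM, and the other 5 strains between 19.4 and 66.8 CPM, with no overlap. Ndufa4l2 was lowest in CAST/EiJ (0.0730 to 0.483 CPM) and PWK/PhJ (0.0913 to 0.380 CPM) and reached 4.21 CPM in NZO/HlLtJ. The assembly factor Ndufaf6 was lowest in A/J, at 4.43 to 6.56 CPM, and reached 15.8 CPM in PWK/PhJ. Ndufaf2, another assembly factor, spanned 4.06 to 8.18 CPM in CAST/EiJ and 7.67 to 12.4 CPM in 129S1/SvImJ. The alignment of reads from strains that differ from the reference genome was not examined here.

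**Figure D4:**
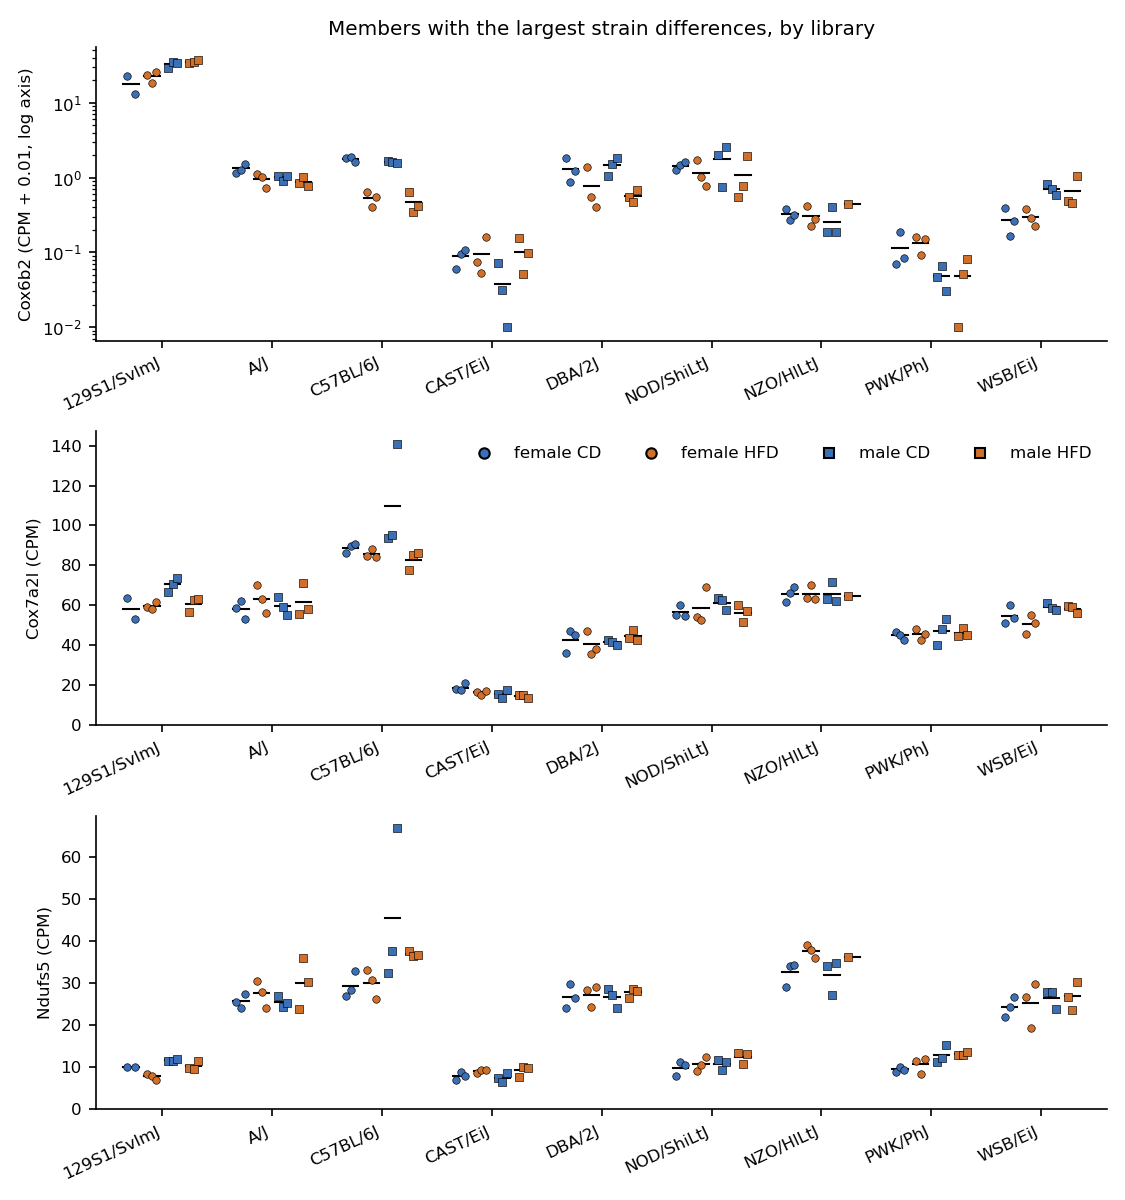
CPM of Cox6b2 (log axis, CPM + 0.01), Cox7a2l and Ndufs5 in each library by strain. Cox6b2 stands out in the 11 libraries of 129S1/SvImJ, Cox7a2l is lowest in CAST/EiJ, and Ndufs5 falls into 2 sets of strains.

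Each strain was also compared with the mean of the other 8 on chow. C57BL/6J had 50 members higher and none lower, with a median of 0.22, where 43.2% of all genes passed, 23% higher and 20.2% lower. Without the library apart it had 13 higher and 4 lower, where 36.5% passed, and the median was 0.00077. WSB/EiJ had 8 higher and 35 lower, with a median of −0.14, where 62.5% passed (33.2% higher, 29.3% lower). A/J had 3 higher and 35 lower, with a median of −0.13, where 44.4% passed (22.6% higher, 21.8% lower). 129S1/SvImJ had 20 higher and 2 lower, where 30.7% passed (16.8% higher, 13.9% lower), and without the library apart 28 higher and 2 lower, where 32% passed. The remaining strains had members on both sides. CAST/EiJ had 25 higher and 22 lower (all genes 63.5%, 32.1% higher and 31.4% lower) and NZO/HlLtJ 19 and 17 (52.7%, 27.3% and 25.4%), which became 29 and 17 without the library apart (53.9%). PWK/PhJ had 14 and 18 (55.1%, 28% and 27%) and DBA/2J 4 and 10 (31.8%, 16.8% and 15%). NOD/ShiLtJ had 6 and 4 (36%, 17.9% and 18%), which became 13 and 5 without it (37.2%), while DBA/2J became 6 and 10 (32.8%) and PWK/PhJ 17 and 17 (55.9%). With library totals in place of TMM factors the median of all genes moved by −0.12 in A/J and by −0.11 in NZO/HlLtJ.

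Males had higher levels than females for many members on chow. The largest differences were in Cox7a2, Ndufa13 and Ndufa2, and no member was called lower in males. By edgeR 52 members were called, all 52 higher in males, where 39.3% of all genes passed, 19.1% higher and 20.2% lower. The median difference of the members was 0.14 and 81 of 90 were positive, while the median of all genes was −0.01. Counts were 23 of 36 in complex I, 2 of 4 in complex II, 5 of 9 in complex III, 10 of 15 in complex IV, 9 of 17 in complex V and 3 of 8 assembly factors, and Cycs was not called. With library totals in place of TMM factors the split was 23 higher and 4 lower, and after quantile normalization 26 higher and 5 lower, where 6161 and 5231 of the 14330 genes passed. With limma and 1 effect per strain as the unit, Cox7a2 was the only member called (0.33, adjusted p = 0.044). On HFD, 35 members were called, 34 higher and 1 lower, where 34.5% of all genes passed, with a median of 0.11.

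Several technical values moved with sex. The share of reads not uniquely aligned had a median of 16.7% in females and 21.8% in males, and the mean log2 CPM of the 684 other short transcripts had medians of 3.19 in CD females and 3.32 in CD males, being higher in males in 8 of 9 strains. On HFD the latter medians were 3.26 and 3.34, and males were higher in 5 of 9 strains. Members with transcripts under 1000 bases were called in 33 of 52 (median 0.16) and longer members in 19 of 38 (median 0.11), all higher in males. Of the 684 other short protein-coding genes, 215 were higher and 54 lower (median 0.07). Of 11751 longer ones, 2194 were higher and 2594 lower (median −0.02). When the library apart was left out, 43 members were called on chow, 42 higher and 1 lower, with a median of 0.10, where 38.1% of all genes passed, and 43 on HFD, where 36.1% did. With the not uniquely aligned share as a covariate 5 were called, 3 higher and 2 lower, with a median of 0.07, and 2 on HFD, where 4257 and 3107 of the 14330 genes passed. With the short-transcript level as a covariate 18 were called, 6 higher and 12 lower, with a median of −0.02, where 35.6% of all genes passed, 16.9% higher and 18.7% lower. On HFD that fit called 37, 34 higher and 3 lower, where 38% passed. Their part in the sex difference was otherwise not tested.

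Cox7a2, the liver form of a complex IV subunit, was the member that was called on chow under all 25 alternatives. Its lowest, median and highest values on CD were 69.7, 87.0 and 127 CPM in females and 84.2, 112 and 228 CPM in males. On HFD they were 56.3, 85.0 and 115 CPM in females and 94.6, 109 and 138 CPM in males. The male mean was higher in 8 of 9 strains on CD, all but CAST/EiJ, with no overlap in 6 of them, and in 9 of 9 strains on HFD, with no overlap in 8. The difference was 0.35 on CD (SE 0.046, edgeR adjusted p = 2.9e-09) and 0.37 on HFD (edgeR adjusted p = 9.5e-10). It was 0.31 without the library apart, 0.22 with the not uniquely aligned share and 0.19 with the short-transcript level as a covariate.

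**Figure D5:**
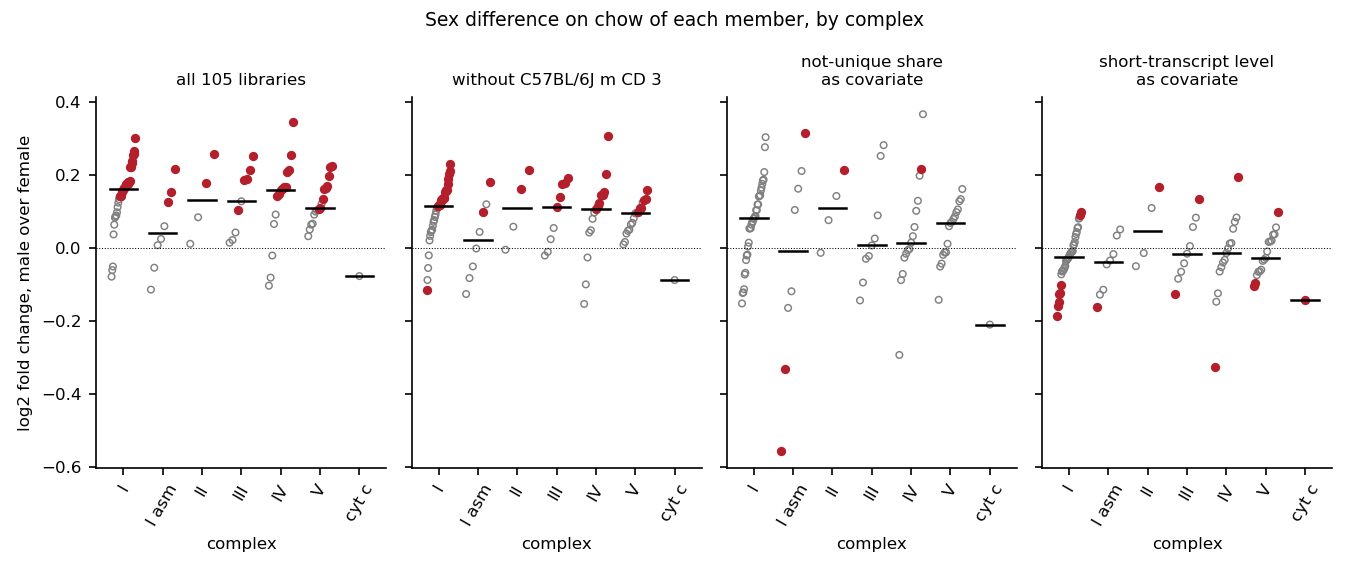
Log2 difference of males from females on chow for each member by complex, averaged over 9 strains, in the same 4 panels as for diet. With all libraries the red points, which passed an adjusted p of 0.05, all lie above 0, and with either covariate fewer red points do.

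The other large sex differences were less stable. Ndufa13, a complex I subunit whose gene overlaps Yjefn3 on the same strand, had medians of 97.2 CPM in CD females and 108 in CD males, and a difference of 0.30 (edgeR adjusted p = 0.00026) that was 0.23 without the library apart and 0.04 with the short-transcript level. Ndufa2 had medians of 52.3 and 61.5 CPM and a difference of 0.26 (edgeR adjusted p = 0.0013), which was −0.01 with the short-transcript level. Among the core subunits, Sdhb (0.26), Ndufa4 (0.25), Uqcrc1 (0.19), Sdha (0.18), Ndufv1 (0.15), Atp5a1 (0.11), Atp5b (0.11) and Cyc1 (0.10) were higher in males on chow, Atp5a1 and Atp5b being at −0.03 and −0.11 after quantile normalization. Of the complex IV forms, Cox6a1 (0.21), Cox6b1 (0.21), Cox4i1 (0.17) and Cox8a (0.17) were higher, and the values of Cox4i1 and Cox6b1 were below 0 with either covariate. Ndufs1 (−0.06), Sdhc (0.08), Sdhd (0.01), Uqcrfs1 (0.01), Atp5g1 (0.09), Atp5g2 (0.03), Atp5g3 (0.10), Cox7a2l (0.07), Cox6b2 (−0.10), Ndufa4l2 (−0.02) and Cox7a1 (−0.08) were not called. On HFD the single lower member was Cox7a1 (−0.34, edgeR adjusted p = 0.028), at medians of 0.718 CPM in females and 0.702 in males, which was called under 12 of 22 alternatives. Cycs was higher in males by 0.26.

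The variance of the members' log2 levels was split over the design. Strain took a median of 33.7% over the members, against 50.6% over all genes, sex 5.55% against 1.96%, diet 0.997% against 1.29%, and the spread within groups 33.5% against 24.2%. Strain took 95.8% for Cox7a2l, 93.1% for Ndufs5 and 91.8% for Cox6b2. Diet took 22.8% for Cycs and 20.7% for Sdhd, and sex took 36.6% for Cox7a2.

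Members varied together among mice of a group. Over deviations from group means in 104 libraries the median Pearson r between pairs of members was 0.70, and 0.64 over 103 libraries without the library apart. Pairs within complex I had a median r of 0.81. Against the mitochondrially encoded subunits the members' median r was 0.07, against the mitoribosome genes 0.51 and against the TCA cycle genes 0.19. All pairs share the same libraries, and these correlations are given as a description. Within groups the summed members had an r of 0.00773 with total gene counts and 0.134 with the not uniquely aligned share (104 libraries). The r with the level of other short transcripts was not computed, nor that between pairs of other genes. Whether the co-variation is particular to the members was therefore not tested. Atp5j2, Ndufb9 and Atp5h each had a median r of 0.86 with the other members, and 0.80, 0.80 and 0.82 without the library apart. Ndufaf4 had the lowest, at −0.06, and −0.14 without that library.

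Other genes of the pathway were counted from lists for the same comparisons. On HFD, where 20.2% of all genes were higher and 20.2% lower, the mitochondrially encoded subunits had none higher and 2 of 13 lower (mt-Co2 −0.11, mt-Nd1 −0.08), and none was called without the library apart. The TCA cycle list had 1 higher and 6 lower of 13, mitochondrial import 1 and 11 of 23, the mitoribosome 8 and 21 of 77, carriers of protons and nucleotides 1 and 4 of 8, assembly factors of complexes II to V 1 and 4 of 27 and hypoxia targets 1 and 2 of 6. Without the library apart the mitoribosome counts were 14 higher and 18 lower.

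Of 15 regulators of mitochondrial genes, 8 fell on HFD and none rose, where 20.2% of all genes were lower, with a median of −0.13. The coactivator Ppargc1a fell by −0.35 (edgeR adjusted p = 0.039), the nuclear receptor Esrra, which acts with it, by −0.24 (adjusted p = 0.0025), and Nrf1, a factor of respiratory gene promoters, by −0.13 (adjusted p = 0.041). The mitochondrial RNA polymerase Polrmt (−0.17) and its cofactor Tfb2m (−0.16) were lower, while Tfam (−0.03), Ppara (0.04) and Yy1 (−0.01) were not called. In males on chow 2 of the 15 regulators were higher and 4 lower than in females, Ppargc1a by −0.81 (edgeR adjusted p = 0.0005). The mitochondrially encoded subunits had 6 of 13 higher and none lower in males on chow and 10 on HFD, and the mitoribosome 19 of 77 higher on chow and 20 on HFD (16 and 24 without the library apart), with none lower on either diet. Over all genes 19.1% were higher and 20.2% lower in males on chow, and 15.2% and 19.3% on HFD.

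Some marker lists of other cells moved with diet or sex. All 6 Kupffer cell and macrophage markers rose on HFD, with a median of 0.27, where 20.2% of all genes were called higher. Their summed medians were 269 CPM in CD females, 391 in HFD females, 237 in CD males and 251 in HFD males. The libraries spanned 112 to 549, 192 to 680, 108 to 768 and 140 to 477 CPM in the same order, so the diets overlapped in both sexes. Endothelial markers summed to medians of 247, 261, 230 and 255 CPM in that order, and stellate markers to 224, 234, 183 and 196 CPM. The sums for cholangiocytes, T cells, B cells and neutrophils had medians of at most 7.38 CPM. Red cell markers summed to medians of 42.6 CPM in CD females and 129 CPM in CD males. The 7 hepatocyte markers summed to medians of 131432 CPM in CD females, 117535 in HFD females, 116520 in CD males and 104551 in HFD males. Their part in the member counts was not tested.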

How the data were processed

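The authors deposited a table of whole-number read counts per Ensembl gene for 106 libraries, with rows for reads outside genes. Its name mentions TMM, but the values are whole numbers with differing sums, so they were used as deposited counts. The submitters' processing notes name FastQC, STAR 2.73a and edgeR 3.24.3 without saying for what, and the genome build, annotation and strand setting are not given in the sources used here. Rows for reads outside genes (not unique 13.4% to 29.8%, ambiguous 4.57% to 7.00%, no feature 2.91% to 8.64%) stayed out of library sizes and tests. Symbols, positions and lengths came from GENCODE M21, which named 14321 of the 14330 genes, and promoter windows from RefSeq.

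Counts were fitted with edgeR 4.0.16 in R 4.3.3 (TMM factors 0.831 to 1.12, trended dispersion, quasi-likelihood F test) as 36 group means over the libraries with 69 residual degrees of freedom. P-values were adjusted by Benjamini-Hochberg over all 14330 genes within each contrast, with a threshold of 0.05. A fold change is HFD over CD, or male over female, on the log2 scale with a prior count of 1. CPM and RPKM were computed from the counts and TMM-scaled library sizes, RPKM per median transcript length. No column pair held identical values (0 pairs). Alternatives were DESeq2 1.42.0, limma 3.58.1, other scalings, a low-count filter, technical covariates, strain as the unit and leaving out replicates, libraries or strains. On simulated counts with 200 changed genes of 14330, the average diet contrast recovered 47% of changes of 0.2 log2 units and 99% of 0.5. Its share of false calls was 3.95%, and the chow sex contrast gave 26%, 94% and 2.44%. In the data 40.4% and 39.3% of all genes passed in these contrasts, and members varied together within groups (median r 0.70). Whether these rates hold for the member calls under such conditions was not tested.

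The members and lists were chosen with earlier results of these data known. Named members were the largest called changes per comparison (for diet, only where 13 or more of the 18 pairs shared the sign), the highest and lowest level per complex, and fixed core subunits and paralogs whatever their values; others are named where a count is listed in full.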

Additional observations from a re-analysis of the deposited data

Results flagged for a closer look

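The diet effect of 5 members differed between strains by an F test of the 9 strains' effects, where 16.4% of all genes passed. F was 6.76 for Cox6b2, 5.40 for Cycs, 4.18 for Atp5s, 3.68 for Ndufab1 and 2.89 for Ndufa5, which lost its call in 48 of 104 fits that each left out a single library. The diet effect of Cycs also differed between the sexes, by 0.33 on the log2 scale, with the larger fall in females. Groups held at most 3 libraries, so single libraries were not tested for standing apart within them.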

How the results depend on the processing

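No paired analysis was possible because replicates were numbered in accession order and the numbers pair no mice. Cycs and Sdhd for diet and Cox7a2 for sex on chow kept their calls under all 25 alternatives. The settings with the short-transcript level, and those without C57BL/6J male CD 3, were chosen after seeing the data. The cause of the changes below was not tested.

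Members called for the average diet effect (25) were 51 with the short-transcript level, 45 with it and without that library, and 2 with strain as the unit. In females (21) they were 55, 49, and 12, 12 and 13 without C57BL/6J, DBA/2J and PWK/PhJ. In males (6) they were 2 with library totals, 3 with limma, 3 with the low-count filter, 10 with the not uniquely aligned share, 14 with the short-transcript level, and 2, 1, 3 and 11 without 129S1/SvImJ, C57BL/6J, DBA/2J and NZO/HlLtJ. For the sex difference in diet effect (1) they were 3 with the short-transcript level and without the library, 0 without PWK/PhJ and 2 without WSB/EiJ. For the difference between strains (5) they were 8 with the left-out 129S1/SvImJ library kept under its label, 10 with library totals, 3 with the low-count filter, and 13 with the short-transcript level, with or without the library. For sex on chow (52) they were 27 with library totals, 31 after quantile normalization, 5 with the not uniquely aligned share, 18 with the short-transcript level, 19 with it and without the library, 1 with strain as the unit and 32 without C57BL/6J. On HFD (35) they were 2 with the not uniquely aligned share. DESeq2 gave 25 for diet and 56 for sex on chow. With the short-transcript level, and then also without the library, all-gene shares were 40.7% and 37.7% for the average diet effect, 30.8% and 28.9% in females, 20% and 18.6% in males and 22.3% and 22.7% between strains. They were 1.14% and 1.26% for the sex difference in diet effect, and 35.6% in either fit for sex on chow. Over the settings other than those added later, genes called ran from 2314 (strain as the unit) to 6212 for the average diet effect, 2790 to 5351 in females, 993 to 3152 in males, 27 to 514 for their difference, 452 to 2460 between strains, 1747 (strain as the unit) to 6161 for sex on chow and 3107 to 5157 on HFD.

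The sum over single strains (45) was 80 with the short-transcript level. With it, and then also without the library, counts were 2 and 3 in 129S1/SvImJ, 8 and 8 in CAST/EiJ, 15 and 11 in DBA/2J, 8 and 8 in NOD/ShiLtJ and 16 and 15 in PWK/PhJ, and 16 in C57BL/6J with both. All-gene shares were 1.56% and 1.68% in 129S1/SvImJ, 26.0% and 26.2% in CAST/EiJ and 5.97% and 5.55% in DBA/2J. They were 7.20% and 7.37% in NOD/ShiLtJ, 11.2% and 11.3% in PWK/PhJ, and 19.8% in C57BL/6J with both. 129S1/SvImJ had 7 with its left-out library kept. NOD/ShiLtJ had 1 with library totals, median-ratio factors or the low-count filter and 5 with the not uniquely aligned share, which gave 15 in C57BL/6J. DBA/2J had 5 after quantile normalization and 1 with the low-count filter, and CAST/EiJ 9 after quantile normalization.

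Leaving out replicates gave 16 to 34 for the average diet effect, 9 to 22 in females, 1 to 9 in males, 0 to 2 for their difference, 1 to 16 between strains, 20 to 62 for sex on chow, 10 to 43 on HFD and 19 to 39 for the sum over strains. By strain this was 0 to 2 in 129S1/SvImJ, 9 to 33 in C57BL/6J, 2 to 7 in CAST/EiJ, 1 to 5 in DBA/2J, 0 to 4 in NOD/ShiLtJ, 1 to 8 in PWK/PhJ and 0 to 1 in WSB/EiJ.

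Where it was called with or without the change of setting, the chow sex difference of a named member changed sign after quantile normalization for Atp5a1 (−0.0318), Atp5b (−0.11) and Uqcrfs1 (−0.0777), with the not uniquely aligned share for Cox4i1 (−0.00299) and Cox6b1 (−0.0158), with the short-transcript level for Atp5g1 (−0.10), Cox4i1 (−0.0141), Cox6b1 (−0.0013) and Ndufa2 (−0.0111), and with that level and without the library for Atp5g1 (−0.10) and Cox4i1 (−0.0033). Values called under neither setting also crossed 0, among them those of Cox7a2l, Atp5g2, Atp5g3, Sdhc and Sdhd. Depth did not limit the abundant members, but Cox6b2, Cox7a1 and Ndufa4l2 lay near or below 1 CPM in many libraries. NZO/HlLtJ males on HFD are 1 mouse, assumed to vary like the other groups.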
